A study of Homo sapiens with 12 samples.

Results

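The GSK3 inhibitor 1-AKP was compared with its solvent DMSO in human beta cells that carried a negative control siRNA. The comparison holds 6 of the 12 RNA-seq libraries of the study: the 3 labelled as negative siRNA with 1-AKP and the 3 labelled as negative siRNA alone, which received DMSO. All cells were EndoC-βH1, which is a human line of beta cells that makes insulin. Every culture was transfected with a lipid reagent, here with AllStars negative control siRNA, and 2 days later received 1-AKP at 5 µM or DMSO diluted 1:1000 for 24 hours. The other 6 libraries had siRNAs against TUNAR, a long noncoding RNA, with the same 2 treatments, and gave a separate comparison of 1-AKP with DMSO. Replicates 1 and 2 came from passage 74 and replicate 3 from passage 75, and the labels give the replicates as separate samples of this 1 line, so a p-value here reflects the spread among these samples alone, which may be technical.

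GSK3 is a serine/threonine kinase, encoded by GSK3A and GSK3B, that is active in resting cells. Together with axin and APC it marks beta-catenin for destruction, and when it is blocked beta-catenin can enter the nucleus and act with TCF/LEF factors on Wnt target genes such as AXIN2. GSK3 is also held down by AKT below the insulin receptor, and it acts on glycogen synthase, on MYC and on many other substrates. In beta cells GSK3 inhibitors are known as agents that can change replication and survival.

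The 12 libraries ranged from 15653786 to 15986834 expected counts. A filter on low counts left 15990 genes. Levels are given in CPM (the count relative to the TMM-scaled library total), in the order of replicates 1, 2 and 3, and differences as log2 fold changes of 1-AKP over DMSO from edgeR's quasi-likelihood test with the standard error (SE). Where replicates are not listed, levels are means ± SD (n = 3), DMSO first. A gene was called, and is said to have risen or fallen, at a Benjamini-Hochberg adjusted p under 0.05 over all genes tested. Replicate 1 stood apart in both groups. On the first principal component of the 6 libraries, which held 33.2% of the variance, it had the lowest score of its group, at -29.7 with DMSO and -12.7 with 1-AKP. SST, the somatostatin gene, ran from 4.04 to 29 CPM over the 6 libraries and was highest in replicate 1 of each group. All 12 beta-cell markers were present in every library, and 4 of them fell (IAPP, NKX2-2, NKX6-1 and UCN3), where 3.76% of all genes tested fell. PPY, the acinar markers PRSS1, PRSS2, CELA3A, PNLIP and REG1A, SPP1, LUM, VWF and HBB were at 0 in all 6 libraries, and GCG reached at most 0.19 CPM. Some other markers of these cell types were present in all 6 libraries. CPA1, of acinar cells, stood at 20.7 to 33 CPM and KRT19, of duct cells, at 48.7 to 59.6. DPP4 and IRX2, of other islet cells, stood at 132 to 203 and 25.4 to 34.2 CPM, and CD68, of blood cells, at 25.2 to 53.7. The summed tested markers of other islet cells ran from 177 to 230.2 CPM with DMSO and from 206 to 262 with 1-AKP, those of duct and acinar cells from 72.1 to 87.1 and from 72.9 to 87.8, those of fibroblasts from 4.07 to 6.93 and from 2.54 to 6.38, and those of endothelial and blood cells from 33.5 to 55.6 and from 43.1 to 60. No marker of other islet, duct, acinar, fibroblast, endothelial or blood cells was called among the 13 tested of 35. Of all genes tested 7.3% were called, so having none among 13 does not set these markers apart.

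1-AKP changed 1168 of 15990 genes (7.3%), of which 566 rose (3.54%) and 602 fell (3.76%). Most changes were small. The median called gene that rose gained 19.3% and the median called gene that fell changed by -23.2%. Of the called genes 52 rose and 190 fell by over 0.5 on the log2 scale, and 12 rose and 34 fell by over 1. The median log2 fold change of all genes was -0.00. In all 1168 called genes the 3 libraries with 1-AKP lay wholly above or wholly below the 3 with DMSO, a pattern that 13.4% of all genes tested had upward and 12.5% downward. The count of calls moved with the replicates used. Leaving out 1 library at a time gave 492 to 991 calls. A replicate number was also left out of all 4 groups, those with TUNAR siRNAs too, and the spread was estimated anew. Without replicate 1, 2559 genes were called, 1107 of them among the 1168. Without replicate 2 or replicate 3 only 29 and 51 were called, all of them among the 1168. Replicate 3 was also the only one of passage 75, which holds 1 library a group, so the fit without it is the comparison within passage 74. The direction held in 1168, 1167 and 1168 of the 1168 genes in these 3 fits. Since the groups of these genes do not overlap, leaving out libraries could hardly change their direction. With library size in place of TMM the split was 414 risen and 702 fallen of 1116.

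**Figure D1:**
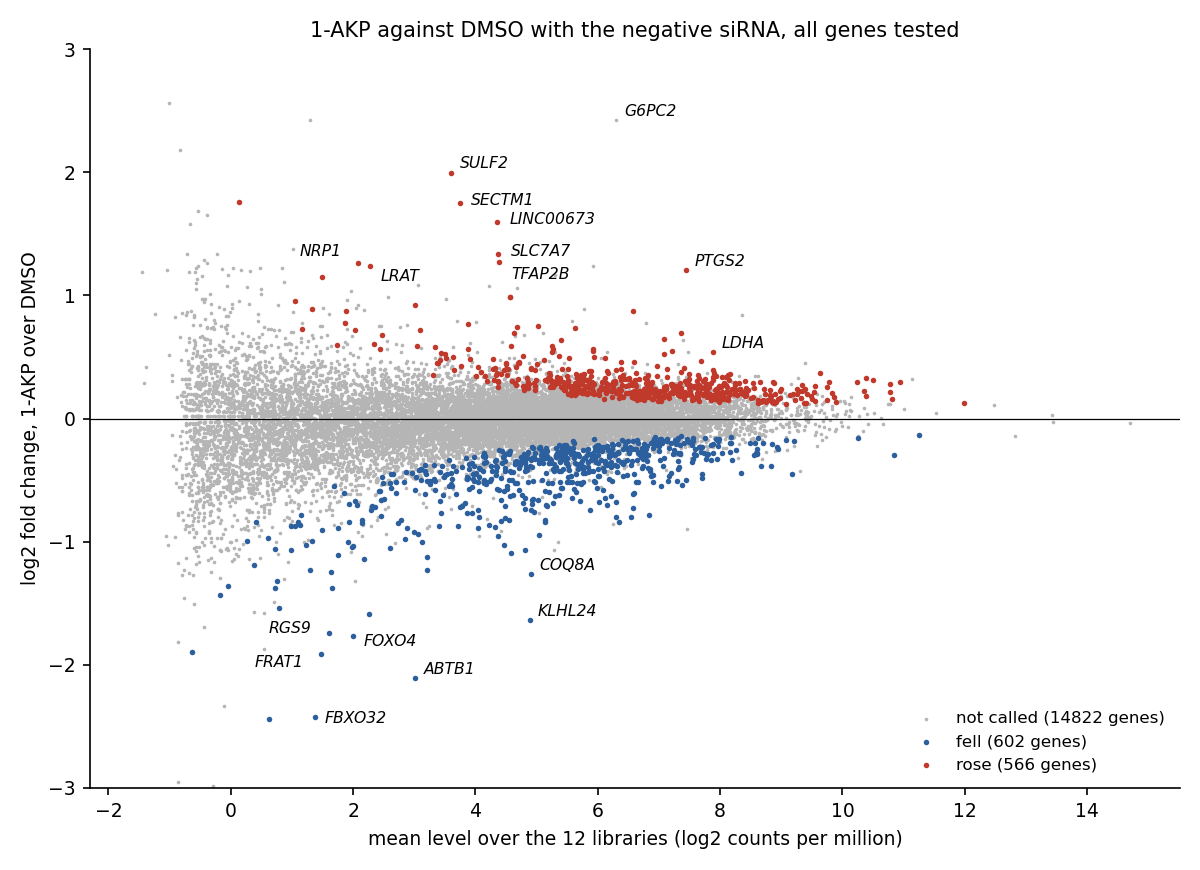
Log2 fold change of 1-AKP over DMSO (vertical axis) against the mean level over the 12 libraries in log2 CPM (horizontal axis), one point per gene tested, red for the 566 that rose, blue for the 602 that fell and grey for the rest. The largest called falls reach further from 0 than most called rises; 11 genes lie outside the vertical axis.

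Risen and fallen genes differed in length. The median deposited gene length was 2197 bases in risen genes, 4445 in fallen genes and 2886 in all genes tested. Of the 1074 genes of up to 1000 bases, 7.91% rose and 0.838% fell, while of the 3129 genes over 5000 bases 1.79% rose and 8.34% fell. With the trend of the counts with gene length removed in each library, 896 genes were called, 822 of them among the 1168. The part of length in the results was not tested further, and values from that fit are given beside some of the lists of short genes. Level differed too. The median mean log2 CPM was 6.68 in risen genes, 5.42 in fallen genes and 4.59 in all genes tested, and the part of level was not tested. Counts for the lists and families below stand beside 3.54% risen and 3.76% fallen over all genes tested.

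Wnt targets were examined first, since beta-catenin is the best-known substrate of GSK3. AXIN2, which encodes an axin and is the usual reporter gene of beta-catenin activity, stood at 9.43, 9.27 and 11.3 CPM with DMSO and 9.86, 9.77 and 8.33 CPM with 1-AKP. The groups overlapped (log2 fold change of -0.10, SE 0.133, adjusted p = 0.746). TCF7 (5.6 ± 0.464 to 5.30 ± 0.308 CPM, log2 fold change -0.08, adjusted p = 0.848), NKD1, an inhibitor of the pathway (6.47 ± 1.36 to 6.37 ± 0.693 CPM, log2 fold change -0.02, adjusted p = 0.963), and the ubiquitin ligase genes RNF43 (log2 fold change -0.19, adjusted p = 0.156) and ZNRF3 (log2 fold change 0.08, adjusted p = 0.657) did not pass the test either. LEF1, CCND1 and CCND2 did not pass the filter on low counts. Of the 24 beta-catenin target genes tested, of 34 listed, 1 rose and 4 fell, with a median log2 fold change of -0.28. The gene that rose was PPARD, a fatty acid receptor of the nucleus (log2 fold change of 0.30, SE 0.0668, adjusted p = 0.0194; adjusted p = 0.0812 without DMSO replicate 3). KREMEN1, which encodes a receptor for Dickkopf inhibitors, fell from 35.7, 36.9 and 36.6 CPM with DMSO to 26.7, 26.0 and 24.1 CPM with 1-AKP (log2 fold change of -0.51, SE 0.0769, adjusted p = 0.00234). CD44, a hyaluronan receptor, fell by 0.43 (adjusted p = 0.0156; adjusted p = 0.0639 without DMSO replicate 3), ID2, a helix-loop-helix inhibitor, by 0.30 (adjusted p = 0.00885), and SOX4, an HMG-box factor, by 0.54 (adjusted p = 0.0336). None of the 5 was called without replicate 2 or replicate 3.

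The kinase genes themselves and beta-catenin were not called. GSK3A stood at 83.4 ± 2.38 to 90.3 ± 2.67 CPM (log2 fold change 0.12, adjusted p = 0.212), GSK3B at 173 ± 8.59 to 173 ± 10.3 CPM (log2 fold change -0.00, adjusted p = 0.999) and CTNNB1, which encodes beta-catenin, at 396 ± 25.6 to 350.5 ± 18.1 CPM (log2 fold change -0.17, adjusted p = 0.191). TCF7L2, the main TCF factor of islets and a diabetes risk gene, was low, at 3.81, 3.49 and 4.69 CPM with DMSO and 2.47, 3.40 and 2.16 CPM with 1-AKP (log2 fold change of -0.58, SE 0.215, adjusted p = 0.138). Of the 30 genes of the GSK3 and destruction complex list that were tested, 4 fell and none rose, with a median of -0.06. FRAT1 and FRAT2, which encode proteins that bind GSK3 and keep it from axin, led them. FRAT1 (Entrez Gene 10023) stood at 4.37, 3.42 and 4.69 CPM with DMSO and 1.01, 1.13 and 1.14 CPM with 1-AKP, and every 1-AKP library lay below the lowest DMSO library (log2 fold change of -1.92, SE 0.204, adjusted p = 0.000245). FRAT2 (Entrez Gene 23401) stood at 11.4, 13.1 and 13.3 CPM with DMSO and 5.12, 6.68 and 5.47 CPM with 1-AKP (log2 fold change of -1.13, SE 0.118, adjusted p = 0.000215). The genes are close relatives that neighbour each other on chromosome 10, and how their shared reads were divided is not given in the sources used here. The other fallen members were TNKS, tankyrase, which marks axin for breakdown (log2 fold change of -0.18, SE 0.0443, adjusted p = 0.0265; adjusted p = 0.114 without DMSO replicate 1; adjusted p = 0.192 with the length trend removed), and CSNK1E, casein kinase 1 epsilon (log2 fold change of -0.23, SE 0.0616, adjusted p = 0.0408; adjusted p = 0.153 without 1-AKP replicate 3).

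Of 22 Wnt ligand and receptor genes tested, 4 fell and none rose, with a median of -0.08. None was called without replicate 2 or without replicate 3. PTK7, a Wnt co-receptor of the planar polarity branch, fell from 174, 170.4 and 169.9 CPM with DMSO to 141, 141 and 139.7 CPM with 1-AKP (log2 fold change of -0.29, SE 0.0450, adjusted p = 0.00284). ROR1, a receptor for WNT5A, fell by 0.58 (adjusted p = 0.0126; adjusted p = 0.0639 without 1-AKP replicate 2), the ligand gene WNT4 by 0.35 (adjusted p = 0.0264; adjusted p = 0.102 without 1-AKP replicate 3) and the receptor gene FZD3 by 0.24 (adjusted p = 0.0385; adjusted p = 0.115 without DMSO replicate 2; adjusted p = 0.181 with the length trend removed). Of the 4 secreted antagonists tested, of 12 listed, none was called.

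FOXO transcription factors are held in the cytoplasm by AKT, and they drive genes of protein breakdown, autophagy and the insulin receptor. Of 22 FOXO factors and targets tested, 5 fell and none rose, with a median of -0.13. FOXO4 (Entrez Gene 4303) stood at 5.68, 5.42 and 5.76 CPM with DMSO and 1.90, 1.39 and 1.65 CPM with 1-AKP, a fall to about the same level in all 3 replicates (log2 fold change of -1.77, SE 0.152, adjusted p = 7.42e-05). FOXO3 stood at 74.1, 74.1 and 70.9 CPM with DMSO and 52.6, 53.7 and 47.3 CPM with 1-AKP (log2 fold change of -0.51, SE 0.0588, adjusted p = 0.000335). KLHL24 (Entrez Gene 54800), an adaptor of a cullin ubiquitin ligase, stood at 50.1, 43.0 and 36.9 CPM with DMSO and 17.4, 13.1 and 11.3 CPM with 1-AKP (log2 fold change of -1.64, SE 0.187, adjusted p = 0.000580). Replicate 1 was the highest in each group, and the groups did not come near each other. PINK1, the kinase that marks damaged mitochondria, fell by 0.70 (adjusted p = 0.00107); its locus has an antisense gene, whose reads cannot be told apart where strand is not marked. RBL2, a pocket protein of the cell cycle, fell too. Without replicate 2, 1 of the 22 was called, and without replicate 3, 4. TXNIP, an inhibitor of thioredoxin, was not called (10.3 ± 3.43 to 6.22 ± 1.95 CPM, log2 fold change -0.72, adjusted p = 0.209). The steepest falls outside this list included FBXO32 (Entrez Gene 114907), the ubiquitin ligase subunit atrogin-1 and a known FOXO target in muscle. It stood at 3.75, 4.30 and 4.63 CPM with DMSO and 1.01, 0.567 and 0.763 CPM with 1-AKP (log2 fold change of -2.42, SE 0.240, adjusted p = 0.000141), the largest fall of the genes called, leaving out those whose mean log2 CPM was under 1.

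Of 36 tested genes of insulin receptor, AKT and mTOR signalling, 7 fell and 2 rose, with a median of -0.05. INSR, the insulin receptor, stood at 87.1, 82.2 and 81.0 CPM with DMSO and 61.4, 57.4 and 59.1 CPM with 1-AKP (log2 fold change of -0.49, SE 0.0476, adjusted p = 0.000129). IGF1R, the receptor for insulin-like growth factor 1, fell from 136 ± 2.10 to 98.5 ± 6.94 CPM (log2 fold change of -0.47, SE 0.0619, adjusted p = 0.000959). RICTOR, the defining subunit of mTOR complex 2, fell from 55.6 ± 2.25 to 38.8 ± 0.972 CPM (log2 fold change of -0.52, SE 0.0527, adjusted p = 0.000175). IRS2, the insulin receptor substrate, fell by 0.43 (adjusted p = 0.00722). SESN1 and MTOR also fell, and IGF2R and TRIB3 were the 2 that rose. Without replicate 2, 1 of the 36 was called, and without replicate 3, 2.

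Promoter windows of the called genes were searched for short motifs, from 250 bases before to 50 after each start site in RefSeq (GRCh38.p14). Of the tested genes 12444 matched an entry, and of the called genes 953. The searches were for CTTTGA and the longer CTTTGAT, which holds it (cores that TCF/LEF factors bind), GTAAACA (a core that FOXO and other forkhead factors bind) and CACGTG (an E-box bound by helix-loop-helix factors such as MYC and TFEB), on both strands, and the last 2 were chosen after results were seen. The FOXO core was in 7.05% of the windows of fallen genes, 10.1% of those of genes that fell by over 0.5 on the log2 scale, 0.897% of those of risen genes, 2.53% of those of genes not called and 3.42% of all promoter windows. The E-box was in 16.6% of the windows of risen genes, 6.55% of fallen genes, 8.85% of genes not called and 7.26% of all. CTTTGA was in 5.38% of the windows of risen genes, 11% of fallen genes, 9.61% of genes not called and 12.9% of all, and CTTTGAT in 0.747%, 1.89%, 1.64% and 2.62%. Windows of the calls with TUNAR siRNAs, from the other 6 libraries, held the FOXO core in 7.27% of fallen and 1.27% of risen genes and the E-box in 7.02% and 14.4%. Of these 606 fallen and 595 risen genes, 456 and 413 were also called with negative siRNA. The shares are therefore largely of the same genes and are not independent of those above. These shares are descriptions of letters in fixed windows. Fallen and risen genes also differed in length and level, whose part in the shares was not tested.

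The motifs were not in every promoter of such genes. Of the 12 largest falls 9 had a window, and the FOXO core was in 4 of these 9 (FRAT1, FOXO4, COQ8A and CCDC28A). It was in 0 of 10 windows of the autophagy genes that fell and in 0 of the 31 of all tested members. The E-box was in 14.3% of the 21 windows of the glycolysis genes that rose and 15.2% of the 46 of all tested members, and in 37.5% of the 8 windows of the lysosomal genes that rose and 28% of the 25 of all tested members. Stretches of 4 promoters that hold the FOXO core, all of genes that fell, and 1 with E-boxes, of LDHA, are shown as examples of the matches, picked after they were found. Capitals mark the motif on either strand, and each is written 5′ to 3′ on the strand of the gene. The stretches lie at chr10:97319171-97319270 on the plus strand (FRAT1), chr10:97334730-97334829 on the minus strand (FRAT2), chr1:226940280-226940309 on the plus strand (COQ8A), chrX:71095863-71095892 on the plus strand (FOXO4) and chr11:18394363-18394502 on the plus strand (LDHA, 1 of 2 start sites).
FRAT1: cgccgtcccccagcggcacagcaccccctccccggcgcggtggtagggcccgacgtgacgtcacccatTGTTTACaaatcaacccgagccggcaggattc
FRAT2: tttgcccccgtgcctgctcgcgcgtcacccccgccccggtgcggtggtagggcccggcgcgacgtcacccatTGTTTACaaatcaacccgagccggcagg
COQ8A: gcgggcgagttgGTAAACAgatccggagcg
FOXO4: cccggcgagtgGTAAACAgagacgtcagga
LDHA: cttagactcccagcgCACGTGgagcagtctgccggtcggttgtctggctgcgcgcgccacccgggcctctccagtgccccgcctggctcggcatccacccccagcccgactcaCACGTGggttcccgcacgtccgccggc
The core began 32 bases before the FRAT1 start site and 28 before that of FRAT2, inside a run of 51 bases that the 2 promoters share without a difference. In COQ8A it began 2 bases before the start site and in FOXO4 it lay just after it. The E-boxes of LDHA began 185 and 87 bases before the start site.

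**Figure D2:**
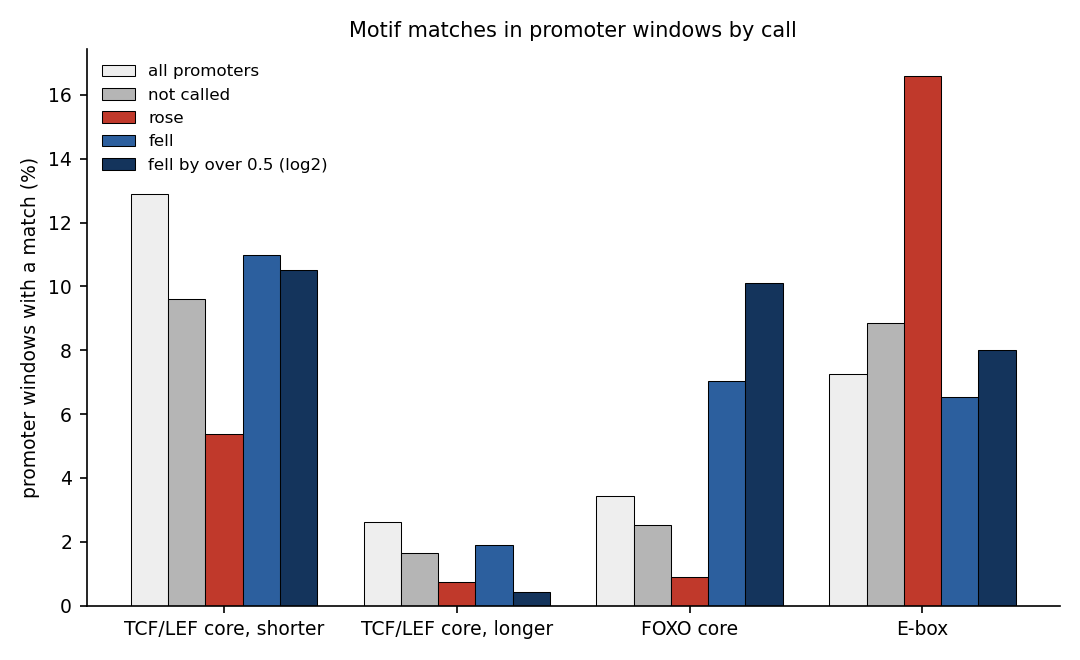
Share of RefSeq promoter windows of 300 bases with a match to each motif on either strand (vertical axis, percent), for all promoters and for genes by call. The FOXO core is more frequent in windows of fallen genes (7.05%; 10.1% for falls over 0.5) than of risen genes (0.897%), and the E-box more frequent in windows of risen genes (16.6%) than of fallen genes (6.55%).

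Of 30 autophagy and mitophagy genes tested, 10 fell and none rose, with a median of -0.09. Several act at the start of the pathway. ULK1, the kinase that starts autophagy, stood at 119, 109 and 115 CPM with DMSO and 74.0, 70.0 and 64.2 CPM with 1-AKP (log2 fold change of -0.72, SE 0.0635, adjusted p = 7.58e-05). ATG13, its partner, stood at 84.8, 83.8 and 83.0 CPM with DMSO and 51.1, 54.9 and 54.6 CPM with 1-AKP (log2 fold change of -0.65, SE 0.0536, adjusted p = 5.77e-05), with the 3 replicates of each group within a few CPM. RB1CC1, the scaffold of the same complex (log2 fold change -0.44, adjusted p = 0.00439), and ULK2 fell with them. WIPI2, which reads the lipid of the forming membrane (log2 fold change -0.52, adjusted p = 0.00235), the lipid scramblase gene ATG9A, ATG2B, the receptor gene NBR1 and the ubiquitin-like genes GABARAPL1 and MAP1LC3A made up the rest. BNIP3L, a mitophagy receptor held in the glycolysis and hypoxia list, stood at 103, 104 and 91.5 CPM with DMSO and 58.6, 55.4 and 52.9 CPM with 1-AKP (log2 fold change of -0.84, SE 0.0831, adjusted p = 0.000141). Without replicate 2, and likewise without replicate 3, 2 of the 30 were called.

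Of 32 lysosomal genes tested, 7 rose and none fell, with a median of 0.16. They included 4 subunits of the proton pump that acidifies the lysosome: ATP6V1E1 (87.5 ± 2.70 to 107 ± 3.29 CPM, log2 fold change 0.30, adjusted p = 0.00290), ATP6V0D1 (log2 fold change 0.22, adjusted p = 0.00799), ATP6V0A1 (log2 fold change 0.19, adjusted p = 0.0155; adjusted p = 0.0695 without DMSO replicate 3) and ATP6V0C. LAMP1, the main protein of the lysosomal membrane, stood at 436, 400.4 and 411 CPM with DMSO and 524, 492 and 509 CPM with 1-AKP (log2 fold change of 0.29, SE 0.0499, adjusted p = 0.00491). The enzyme genes NEU1 (log2 fold change 0.70, adjusted p = 0.0302) and NAGLU were the others. Over all 24 tested genes whose symbol begins with ATP6V, a family picked after values were seen, 8 rose and none fell, with a median of 0.18. Of all genes tested 3.54% rose. Of the lysosome list, 0 members were called without replicate 2 and 0 without replicate 3, with medians of 0.17 and 0.14.

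Most called genes of glycolysis rose. Of 28 tested genes of glycolysis, lactate and the hypoxia response, 11 rose and 2 fell, with a median of 0.20. LDHA, which makes lactate from pyruvate, stood at 215, 211 and 201 CPM with DMSO and 292, 322 and 300 CPM with 1-AKP (log2 fold change of 0.54, SE 0.0663, adjusted p = 0.000580). PGK1, phosphoglycerate kinase, stood at 239, 249 and 245 CPM with DMSO and 296, 296 and 292 CPM with 1-AKP (log2 fold change of 0.27, SE 0.0358, adjusted p = 0.000993). ALDOA, LDHB, PFKM, GAPDH, ENO2, TPI1, PGAM1 and PKM, which are enzymes, and ADM, the peptide adrenomedullin, were the other 9. PDK3, which shuts pyruvate out of the citric acid cycle, fell from 131 ± 3.92 to 95.4 ± 2.96 CPM (log2 fold change of -0.46, SE 0.0523, adjusted p = 0.000327); the other that fell was BNIP3L. Without replicate 2, 0 of the 28 were called as risen and the median was 0.21, and without replicate 3 these were 0 and 0.15. Of 25 glycogen genes tested, 2 rose: GYG1, glycogenin, the primer of glycogen (log2 fold change of 0.45, SE 0.0970, adjusted p = 0.0164; adjusted p = 0.0693 without DMSO replicate 3), and PYGB, a glycogen phosphorylase (log2 fold change of 0.22, SE 0.0533, adjusted p = 0.0295; adjusted p = 0.123 without DMSO replicate 3). GYS1, the glycogen synthase that GSK3 acts on as a protein, stood at 26.3, 26.6 and 24.9 CPM with DMSO and 27.8, 26.6 and 27.3 CPM with 1-AKP and was not called (log2 fold change 0.07, adjusted p = 0.631).

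Of 39 oxidative phosphorylation genes tested, 8 rose and none fell, with a median of 0.12. ATP5MC3, a membrane subunit of ATP synthase, rose from 174 ± 2.47 to 199 ± 3.72 CPM (log2 fold change of 0.19, SE 0.0372, adjusted p = 0.00970; adjusted p = 0.0515 without 1-AKP replicate 3), and CYCS, cytochrome c, from 114 ± 2.47 to 131 ± 1.93 CPM (log2 fold change of 0.20, SE 0.0440, adjusted p = 0.0169; adjusted p = 0.0624 without 1-AKP replicate 2). With the length trend removed 3 of the 39 were called, with library size only 4, and 0 without replicate 2 or without replicate 3. COQ8A (Entrez Gene 56997), which encodes a kinase-like protein needed to make coenzyme Q, had the lowest p of all genes. It stood at 41.5, 43.8 and 37.5 CPM with DMSO and 16.9, 17.1 and 17.0 CPM with 1-AKP (log2 fold change of -1.26, SE 0.0731, adjusted p = 5.86e-06), with 3 nearly equal values in 1-AKP. It was the only one of 13 tested coenzyme Q genes that was called.

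Of 23 NRF2 antioxidant genes tested, 5 rose and none fell, with a median of 0.26. GSR, glutathione reductase, stood at 148, 146 and 152 CPM with DMSO and 205, 192 and 182 CPM with 1-AKP (log2 fold change of 0.38, SE 0.0615, adjusted p = 0.00372). TALDO1, TKT and PGD, enzymes of the pentose phosphate pathway, rose by 0.20, 0.20 and 0.19 on the log2 scale (adjusted p = 0.00758, 0.00835 and 0.0221; for PGD adjusted p = 0.0994 without 1-AKP replicate 3), and NFE2L2, which encodes NRF2 itself, by 0.39 (adjusted p = 0.0238; adjusted p = 0.0827 without DMSO replicate 1). NQO1, the usual reporter of NRF2, had a larger difference that did not pass the test (40.6 ± 10.2 to 75.4 ± 22.7 CPM, log2 fold change 0.89, adjusted p = 0.142). Without replicate 1, 16 of the 23 were called as risen, and without replicate 2 or replicate 3, 0.

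**Figure D3:**
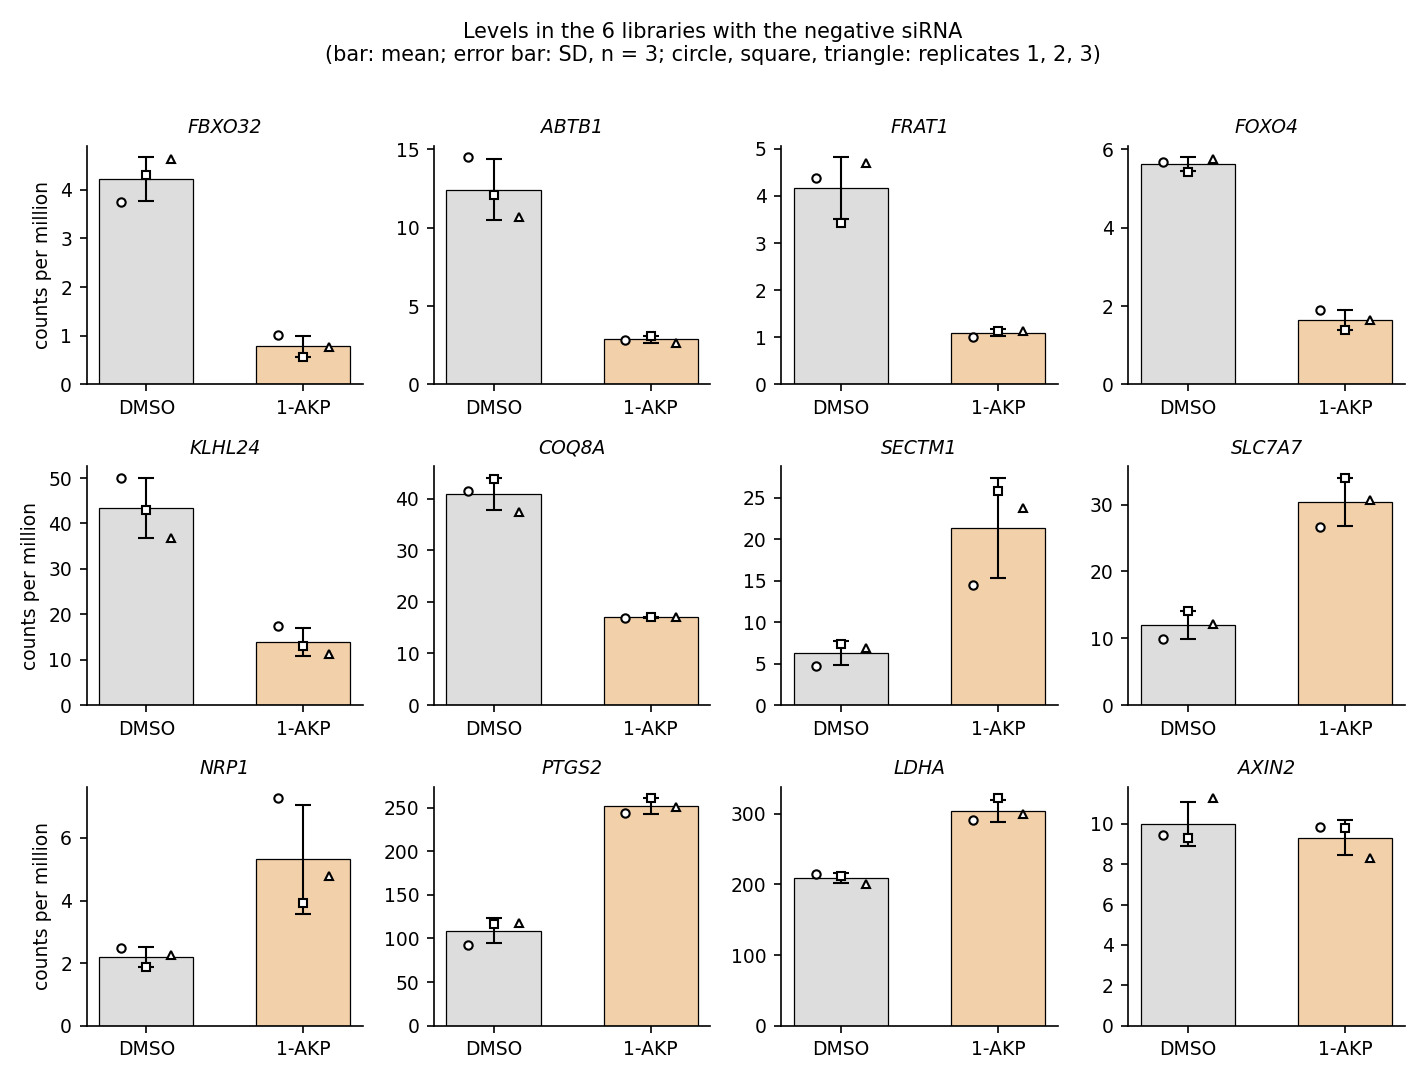
CPM (vertical axes, from 0) of 12 genes in the 3 DMSO and 3 1-AKP libraries with negative siRNA; bars are means, error bars SD (n = 3), and circles, squares and triangles replicates 1, 2 and 3. The groups overlap in AXIN2. The other 11 were picked from the called genes, and in all 1168 called genes the groups do not overlap. Of all genes tested 13.4% had this pattern upward and 12.5% downward.

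Ribosomal protein genes that were called rose by small amounts. Of 38 cytosolic ribosomal protein genes tested, 25 rose (65.8%, against 3.54% of all genes tested) and none fell. The median was 0.17, and all 38 log2 fold changes were above 0. RPS6 stood at 559, 579 and 566 CPM with DMSO and 663, 663 and 682 CPM with 1-AKP (log2 fold change of 0.24, SE 0.0342, adjusted p = 0.00187) and RPL27 at 201, 213 and 201 CPM with DMSO and 242, 237 and 242 CPM with 1-AKP (log2 fold change of 0.23, SE 0.0400, adjusted p = 0.00555). These are short transcripts: with the length trend removed 7 of 38 were called, with a median of 0.12, and with library size only 17. Without replicate 2 and without replicate 3 none was called, with medians of 0.17 and 0.16. Reads of ribosomal protein genes can be shared with processed pseudogenes. Of 29 mitochondrial ribosomal protein genes 4 rose (median 0.20; 1 with the length trend removed, 1 with library size only). Of 30 translation factors 5 rose, all 30 were above 0 and the median was 0.15, as in EIF2S1, a subunit of the factor that brings the initiator tRNA (log2 fold change of 0.29, SE 0.0564, adjusted p = 0.00981; adjusted p = 0.0535 without 1-AKP replicate 3). Of 32 ribosome biogenesis genes 31 were above 0 and the median was 0.20, but only NPM1, nucleophosmin, was called (log2 fold change of 0.27, SE 0.0638, adjusted p = 0.0238; adjusted p = 0.111 without 1-AKP replicate 3; adjusted p = 0.0545 with the length trend removed). Of 30 proteasome subunits 3 rose (median 0.12), all of which lost the call without 1 or another library; 1 was called with the length trend removed and 0 with library size only. Small nucleolar RNA host genes, a family picked after values were seen, had 4 risen members of 22 and none fallen, where 3.54% of all genes tested rose. The 4 were SNHG3 (log2 fold change 0.59), SNHG8 (0.45), SNHG7 (0.41) and SNHG29 (0.24), with adjusted p of 0.00430, 0.00877, 0.000752 and 0.00439.

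Of 29 genes of the unfolded protein response tested, 9 rose and 1 fell, with a median of 0.16. CANX, the chaperone calnexin, stood at 1108, 1173 and 1152 CPM with DMSO and 1382, 1436 and 1493 CPM with 1-AKP (log2 fold change of 0.33, SE 0.0386, adjusted p = 0.000418). HYOU1, an exchange factor of the chaperone BiP (log2 fold change of 0.24, SE 0.0447, adjusted p = 0.00780), and MANF, a secreted folding factor (log2 fold change of 0.34, SE 0.0625, adjusted p = 0.00747), rose from 455 ± 12.9 to 536 ± 3.13 and 117 ± 6.69 to 147 ± 2.63 CPM. PDIA3, PDIA4 and PDIA6, which form disulphide bonds, DNAJB11, HSP90B1 and the transcription factor gene ATF4 were the other 6 that rose. HERPUD1, which acts in the removal of misfolded proteins, fell from 78.8 ± 4.09 to 64.1 ± 1.75 CPM (log2 fold change of -0.30, SE 0.0563, adjusted p = 0.00828). Without replicate 2 and without replicate 3 none of the 29 was called, with medians of 0.17 and 0.13. ERO1B, an oxidase that serves disulphide formation in beta cells, fell (log2 fold change of -0.29, SE 0.0562, adjusted p = 0.00863).

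**Figure D4:**
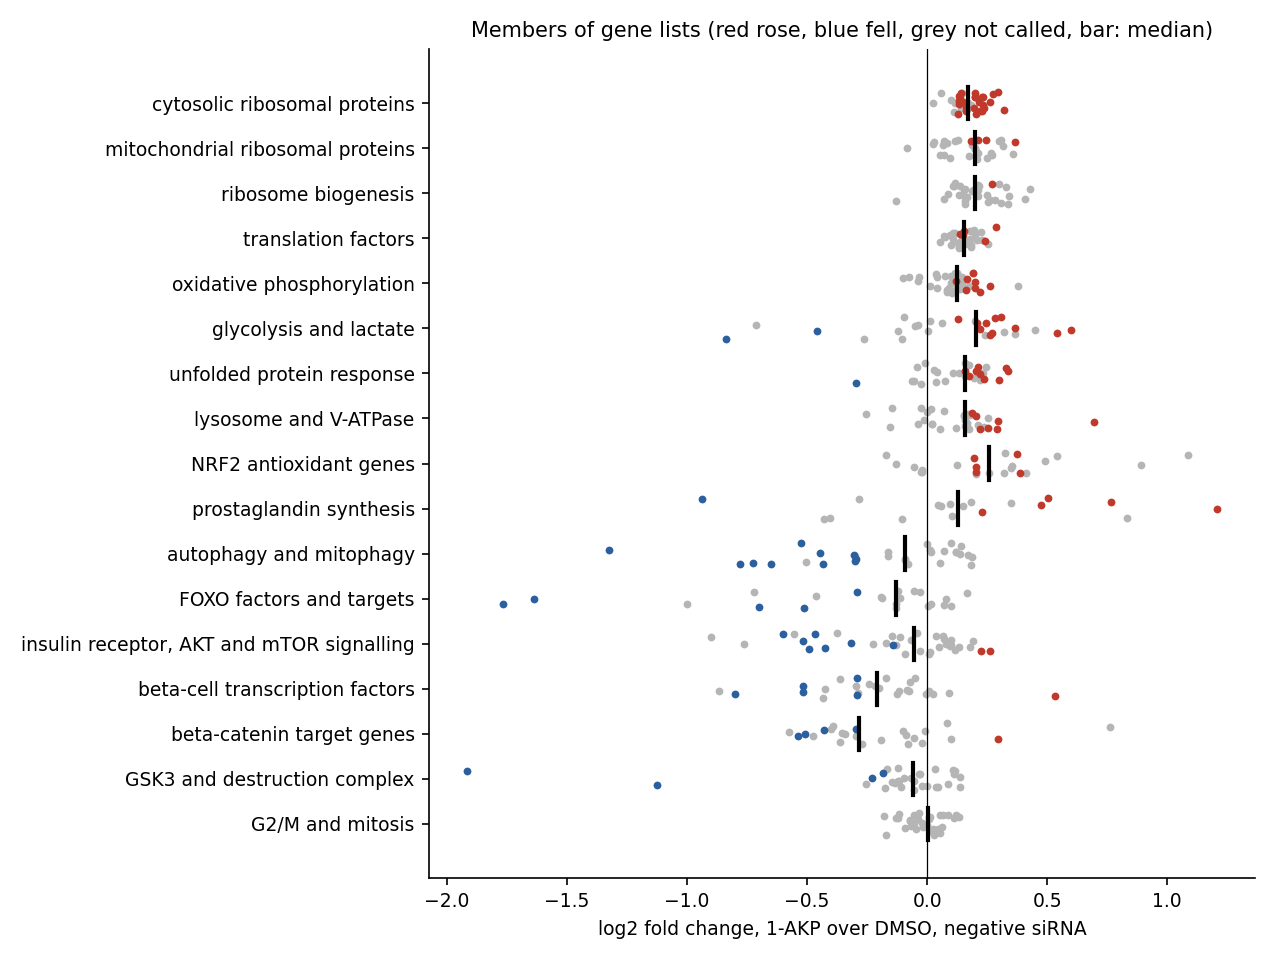
Log2 fold change of 1-AKP over DMSO (horizontal axis) for the tested members of 17 gene lists, one point per gene, red risen, blue fallen and grey not called, with the median as a black bar. Medians of the ribosomal, folding and glycolytic lists lie right of 0 (0.16 to 0.20), with 9 of 28 glycolysis and 6 of 29 unfolded protein response members left of it, and those of beta-catenin targets (-0.28) and beta-cell transcription factors (-0.21) lie left of 0.

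Of 26 beta-cell transcription factors tested, 5 fell and 1 rose, with a median of -0.21. NKX2-2, a homeodomain factor that keeps beta-cell identity, stood at 105, 118 and 124 CPM with DMSO and 64.0, 69.4 and 66.3 CPM with 1-AKP (log2 fold change of -0.80, SE 0.0953, adjusted p = 0.000532). NKX6-1, which marks the beta-cell lineage and is needed for insulin secretion, stood at 119, 130.3 and 131 CPM with DMSO and 89.0, 88.0 and 88.3 CPM with 1-AKP, with 3 nearly equal values in 1-AKP (log2 fold change of -0.52, SE 0.0732, adjusted p = 0.00159). PAX6 fell from 424 ± 15.9 to 346 ± 8.92 CPM (log2 fold change of -0.29, SE 0.0429, adjusted p = 0.00201), and MLXIPL, which encodes the glucose-responsive factor ChREBP, from 136 ± 13.9 to 95.1 ± 2.01 CPM (log2 fold change of -0.52, SE 0.0846, adjusted p = 0.00370). GLIS3, a zinc finger factor, fell by 0.29 (adjusted p = 0.0126), and BACH2, a repressor, rose by 0.53 (adjusted p = 0.0301). PDX1 (334 ± 10.5 to 308 ± 13.8 CPM, adjusted p = 0.247) and MAFA (89.5 ± 20.9 to 66.2 ± 16.9 CPM, adjusted p = 0.494) were not called. Without replicate 1, 14 of 26 were called as fallen, and without replicate 2 or replicate 3 none.

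INS, the insulin gene, stood at 9286, 10634 and 11928 CPM with DMSO and 9410.3, 11187 and 11819.9 CPM with 1-AKP, with the same order of replicates in both groups (log2 fold change of 0.03, SE 0.148, adjusted p = 0.950; 95% interval of the log2 fold change -0.30 to 0.35). IAPP, the amyloid peptide stored with insulin, stood at 136, 94.6 and 106 CPM with DMSO and 84.5, 53.7 and 54.4 CPM with 1-AKP, just past the threshold (log2 fold change of -0.80, SE 0.214, adjusted p = 0.0494; adjusted p = 0.176 without 1-AKP replicate 3). UCN3, the peptide urocortin 3 of mature beta cells, stood at 12.9, 16.2 and 12.1 CPM with DMSO and 8.60, 8.13 and 10.0 CPM with 1-AKP (log2 fold change of -0.62, SE 0.136, adjusted p = 0.0171; adjusted p = 0.0794 without 1-AKP replicate 2). G6PC2, the islet glucose-6-phosphatase subunit, had the largest difference of the beta-cell markers but wide groups, at 6.43, 26.5 and 44.1 CPM with DMSO and 38.1, 153 and 223 CPM with 1-AKP. Each 1-AKP library lay above the DMSO library of the same number, but the lowest 1-AKP library lay under the highest DMSO library, and the difference was not called (log2 fold change of 2.43, SE 0.937, adjusted p = 0.176). Of the 36 insulin, processing and granule genes 4 fell and 1 rose, with a median of -0.01. CPE, the carboxypeptidase that trims insulin, fell by 0.13 (adjusted p = 0.0326; adjusted p = 0.131 without DMSO replicate 2), and CPLX2, a clamp of vesicle fusion, rose by 0.19 (adjusted p = 0.0372; adjusted p = 0.153 without 1-AKP replicate 3).

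Of 29 tested genes of glucose sensing and electrical activity 4 fell and none rose, with a median of -0.12. Without replicate 2, 0 of the 29 were called, and without replicate 3, 1. With the length trend removed 3 fell and the median was -0.05. KCNK16, the two-pore potassium channel TALK-1 of islets, stood at 157, 175 and 154 CPM with DMSO and 118, 118 and 105 CPM with 1-AKP (log2 fold change of -0.51, SE 0.0976, adjusted p = 0.00946). KCNH6, a voltage-gated potassium channel, fell from 63.6 ± 1.99 to 48.4 ± 2.10 CPM (log2 fold change of -0.39, SE 0.0719, adjusted p = 0.00722), and CACNA1C, the pore of an L-type calcium channel, from 66.2 ± 0.897 to 55.4 ± 1.78 CPM (log2 fold change of -0.26, SE 0.0472, adjusted p = 0.00722; adjusted p = 0.0853 with the length trend removed). CACNB3, a calcium channel beta subunit, was the fourth (log2 fold change of -0.49, SE 0.108, adjusted p = 0.0186; adjusted p = 0.0798 without 1-AKP replicate 3). Of 20 G-protein-coupled receptors 2 fell: GIPR, the receptor for the incretin GIP, from 25.3, 25.4 and 29.3 CPM with DMSO to 18.9, 18.1 and 17.6 CPM with 1-AKP (log2 fold change of -0.55, SE 0.0893, adjusted p = 0.00356), and GPR119, a lipid receptor, by 0.85 (adjusted p = 0.0295; adjusted p = 0.116 without 1-AKP replicate 3). ITPR3, an inositol trisphosphate receptor that releases stored calcium, rose from 204 ± 3.76 to 258 ± 8.71 CPM (log2 fold change of 0.34, SE 0.0479, adjusted p = 0.00173).

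Of the genes that rose, PTGS2 had the lowest p. PTGS2 (Entrez Gene 5743), cyclooxygenase 2, which starts prostaglandin synthesis, stood at 92.4, 117 and 118 CPM with DMSO and 243, 261 and 251 CPM with 1-AKP (log2 fold change of 1.21, SE 0.0872, adjusted p = 5.22e-05). It kept its call without any single library. Of 18 prostaglandin and leukotriene genes tested, 5 rose and 1 fell, with a median of 0.13. PLA2G4A, the phospholipase that frees the substrate, stood at 11.1, 12.2 and 12 CPM with DMSO and 18.9, 23.1 and 18.1 CPM with 1-AKP (log2 fold change of 0.76, SE 0.115, adjusted p = 0.00229), and ALOX5, 5-lipoxygenase, at 30.1, 30.2 and 30.5 CPM with DMSO and 40.9, 41.7 and 43.3 CPM with 1-AKP (log2 fold change of 0.47, SE 0.0772, adjusted p = 0.00370). PTGER2, a prostaglandin E2 receptor, and CBR1, a carbonyl reductase, were the other 2 that rose. PLA2G6, the calcium-independent phospholipase that is also active in beta cells, fell from 11.1 ± 0.822 to 5.78 ± 0.515 CPM (log2 fold change of -0.94, SE 0.142, adjusted p = 0.00236).

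The other large rises belonged to unlike functions. SECTM1 (Entrez Gene 6398), a secreted ligand of CD7, stood at 4.68, 7.41 and 6.89 CPM with DMSO and 14.5, 25.9 and 23.8 CPM with 1-AKP (log2 fold change of 1.75, SE 0.305, adjusted p = 0.00740). LINC00673, a long noncoding RNA, stood at 9.99, 8.65 and 9.08 CPM with DMSO and 34.3, 24.5 and 25.0 CPM with 1-AKP (log2 fold change of 1.59, SE 0.191, adjusted p = 0.000661). SLC7A7, an exporter of cationic amino acids, stood at 9.87, 14.1 and 12.1 CPM with DMSO and 26.7, 33.9 and 30.7 CPM with 1-AKP (log2 fold change of 1.34, SE 0.147, adjusted p = 0.000297), and SLC3A2, the heavy chain that it needs at the membrane, at 225, 239 and 246 CPM with DMSO and 284, 318 and 310.4 CPM with 1-AKP (log2 fold change of 0.36, SE 0.0574, adjusted p = 0.00309). NRP1, a co-receptor for semaphorins and VEGF, stood at 2.50, 1.87 and 2.25 CPM with DMSO and 7.27, 3.91 and 4.77 CPM with 1-AKP (log2 fold change of 1.27, SE 0.273, adjusted p = 0.0161; adjusted p = 0.0730 without DMSO replicate 2), while the plexin genes PLXNC1 and PLXND1 fell by 0.33 and 0.51. LRAT, which makes retinyl esters, stood at 2.87, 2.43 and 2.32 CPM with DMSO and 5.18, 6.18 and 6.61 CPM with 1-AKP (log2 fold change of 1.24, SE 0.209, adjusted p = 0.00450). NKX6-3, a homeodomain factor, and FLRT3, an adhesion protein, rose from 17.0 ± 2.50 to 33.7 ± 3.60 and 15.4 ± 1.79 to 30.6 ± 1.38 CPM (log2 fold changes 0.99 and 0.99, adjusted p = 0.00290 and 0.000106).

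Of the 12 largest rises 5 (NRP1, SULF2, TFAP2B, CSGALNACT1 and TBX15) lost their call without 1 or another library. The rule that named these genes took only groups without overlap, so their direction could hardly change when libraries were left out. Without replicates 1, 2 and 3 in turn the log2 fold change of SULF2 was 2.03, 1.83 and 2.14, that of TFAP2B 1.40, 1.18 and 1.20, that of CSGALNACT1 1.19, 0.94 and 1.34 and that of TBX15 0.93, 0.88 and 1.05. SULF2, a sulfatase that edits heparan sulfate outside the cell, stood at 2.31, 4.17 and 6.01 CPM with DMSO and 8.28, 20.4 and 21.3 CPM with 1-AKP, where replicate 1 was the lowest of each group (log2 fold change of 2.00, SE 0.530, adjusted p = 0.0496; adjusted p = 0.168 without DMSO replicate 1; adjusted p = 0.0565 with the length trend removed). HS6ST3, which adds the sulfates that SULF2 removes, rose from 72.9, 68.8 and 57.8 CPM with DMSO to 138, 122 and 105 CPM with 1-AKP (log2 fold change of 0.87, SE 0.133, adjusted p = 0.00356). TFAP2B, a developmental transcription factor, stood at 9.49, 11.6 and 13.6 CPM with DMSO and 17.0, 31.5 and 35.4 CPM with 1-AKP, again with replicate 1 lowest (log2 fold change of 1.27, SE 0.292, adjusted p = 0.0273; adjusted p = 0.103 without DMSO replicate 1). CSGALNACT1, an enzyme that starts chondroitin sulfate chains (log2 fold change 1.15; adjusted p = 0.0662 without DMSO replicate 2), and TBX15, a T-box factor (log2 fold change 0.95; adjusted p = 0.165 without 1-AKP replicate 2), were low in all libraries. Of the 12 largest rises, 7 kept their call without any 1 library, and 3 without replicate 2 and 3 without replicate 3.

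Among the other steep falls, ABTB1, an ankyrin repeat and BTB domain gene, stood at 14.5, 12.1 and 10.6 CPM with DMSO and 2.84, 3.09 and 2.67 CPM with 1-AKP (log2 fold change of -2.11, SE 0.176, adjusted p = 5.77e-05). RGS9, a regulator of G-protein signalling of the R7 class best known from retina and striatum, stood at 2.94, 3.92 and 3.13 CPM with DMSO and 1.14, 0.820 and 1.02 CPM with 1-AKP (log2 fold change of -1.74, SE 0.256, adjusted p = 0.00201). BCAS3 fell from 6.49 ± 1.14 to 2.15 ± 0.607 CPM (log2 fold change of -1.59, SE 0.220, adjusted p = 0.00137). BTN3A1, a butyrophilin that presents to gamma-delta T cells, fell from 4.56 ± 0.315 to 1.92 ± 0.203 CPM (log2 fold change of -1.24, SE 0.208, adjusted p = 0.00430), and its neighbour in the family BTN3A2 from 4.66 ± 0.290 to 2.32 ± 0.734 CPM (log2 fold change of -1.0, SE 0.217, adjusted p = 0.0161; adjusted p = 0.0672 without 1-AKP replicate 3); the family members are similar, and how shared reads were divided is not given in the sources used here. CCDC28A and ITGBL1 fell by 1.23 and 1.23 (adjusted p = 0.00600 and 0.00737), and NYNRIN by 1.38 (adjusted p = 0.130 without DMSO replicate 2). Of the 12 largest falls, 11 kept their call without any 1 library, and 5 without replicate 2 and 6 without replicate 3.

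None of 34 G2/M and mitosis genes was called, with a median of 0.00 and a range from -0.18 to 0.13. MKI67, a marker of cycling cells, stood at 251, 213 and 233 CPM with DMSO and 254, 227 and 237 CPM with 1-AKP (log2 fold change of 0.05, SE 0.0796, adjusted p = 0.809), and EZH2 at 118 ± 9.49 to 115 ± 4.16 CPM (adjusted p = 0.831). Of 34 replication genes 2 rose, among them FEN1, a flap endonuclease (log2 fold change of 0.25, SE 0.0606, adjusted p = 0.0292; adjusted p = 0.129 without 1-AKP replicate 3), with a median of 0.11. CCND3, a G1 cyclin, rose from 77.0 ± 1.20 to 89.1 ± 2.26 CPM (log2 fold change of 0.21, SE 0.0440, adjusted p = 0.0133; adjusted p = 0.0654 without 1-AKP replicate 2). The inhibitor genes CDKN1A (11.3 ± 5.08 to 14.6 ± 5.00 CPM, adjusted p = 0.679) and CDKN1B (50.6 ± 2.13 to 53.1 ± 2.09 CPM, adjusted p = 0.728) were not called. NR1D2, a clock repressor, fell from 76.0, 70.3 and 71.0 CPM with DMSO to 45.2, 40.9 and 44.1 CPM with 1-AKP (log2 fold change of -0.74, SE 0.0703, adjusted p = 0.000123), 1 of 2 called among 16 clock genes. JARID2, a subunit of Polycomb complex 2, fell from 44.7 ± 1.84 to 29.6 ± 3.12 CPM (log2 fold change of -0.60, SE 0.0968, adjusted p = 0.00364). Of 20 lysine demethylase genes, a family picked after values were seen, 6 fell and none rose. Tubulin genes, picked in the same way, had 5 risen members of 23 and none fallen, among them TUBA4A (log2 fold change 0.46, adjusted p = 0.00188) and TUBB (log2 fold change 0.31, adjusted p = 0.00188). Over all genes tested 3.76% fell and 3.54% rose. The part of gene length in the families picked after values were seen was not tested. None of 16 interferon genes was called.

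The same treatment was measured again in the 6 libraries with TUNAR siRNAs, which share no library with the comparison above. There 1201 genes were called (7.51%), of which 595 rose (3.72%) and 606 fell (3.79%). Of the 1168 genes called with negative siRNA, 1165 had the same direction and 869 were also called, 413 up and 456 down. These are 74.4% of one list and 72.4% of the other, and no gene was called in opposite directions. Both sets of calls used the same estimate of each gene's spread, made over all 12 libraries, so they are not independent tests. Over the called genes the log2 fold changes had a Pearson r of 0.91, and over all genes tested 0.49; genes are not independent replicates, and the cultures share cell line, passage and treatment time. Risen genes had a median log2 fold change of 0.24 with TUNAR siRNAs against 0.25 with negative siRNA, and fallen genes -0.35 against -0.38. PTGS2 (log2 fold change 1.24), COQ8A (-1.25), FBXO32 (-2.16), ABTB1 (-2.06) and LDHA (0.53) had nearly the same values as with negative siRNA. Cytosolic ribosomal proteins had 21 of 38 risen (median 0.16), autophagy genes 9 fallen and 1 risen of 30, and beta-cell transcription factors 8 fallen of 26.

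The difference between the 2 effects of 1-AKP was tested in the same model, and no gene was called by edgeR (170 at an unadjusted p under 0.05) or by DESeq2. The lowest adjusted p was 1.00. Among the 5 named genes with the lowest p in each direction of the difference was SIMC1, which stood at 19.4, 20.0 and 18.5 CPM with DMSO and 20.7, 21.6 and 19.1 CPM with 1-AKP with negative siRNA (log2 fold change 0.09) and had a log2 fold change of -0.27 with TUNAR siRNAs. ARHGEF17, at under 1 CPM, had -1.90 and 0.07; its call with negative siRNA was lost in part of the fits without 1 library (adjusted p = 0.0691 without 1-AKP replicate 2). The other 8 were GOLGA8T, AGAP7P, OR2A9P, RNASEK-C17orf49, LINC01733, NPEPPSP1, TM6SF2 and CUBN. TUNAR itself stood at 14.4, 19.9 and 17.7 CPM with DMSO and 27.9, 31.0 and 30.8 CPM with 1-AKP. The groups did not overlap, yet the difference was not called (log2 fold change of 0.79, SE 0.234, adjusted p = 0.0718), and an exact two-sided permutation test gave p = 0.1, the smallest that 3 libraries against 3 allow.

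**Figure D5:**
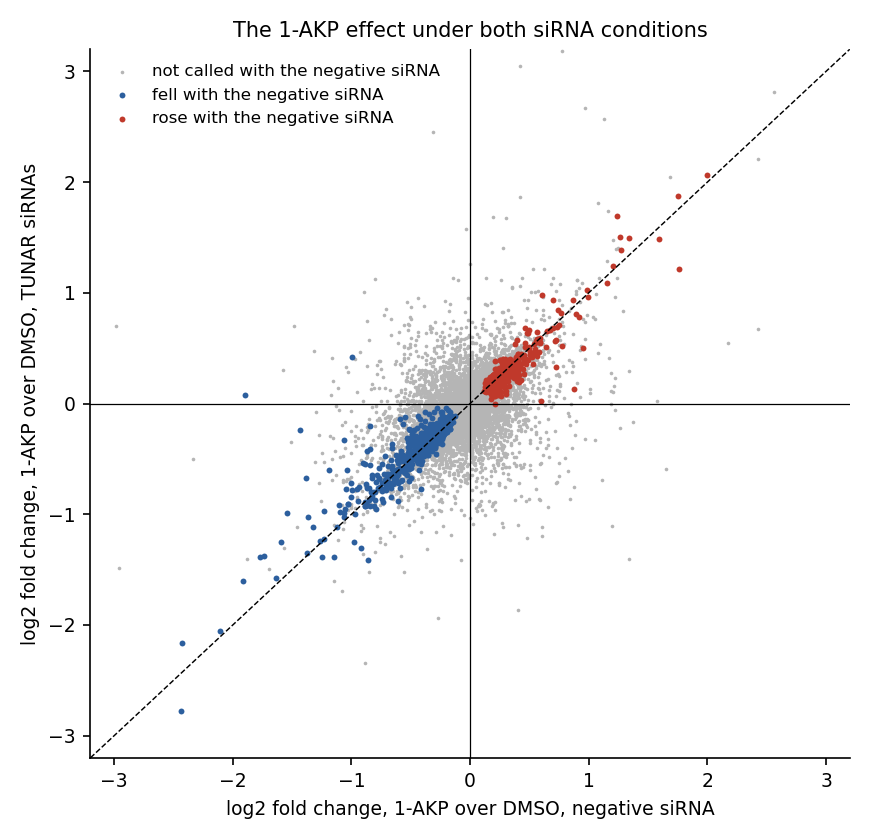
Log2 fold change of 1-AKP over DMSO with TUNAR siRNAs (vertical axis) against that with negative siRNA (horizontal axis), one point per gene tested, coloured by its call with negative siRNA; the dashed line marks equal values and 17 genes lie outside the axes. The called genes lie along the line, 1165 of 1168 on the same side of 0 in both.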

How the data were processed

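Polyadenylated RNA of EndoC-βH1 cells was sequenced on a HiSeq 2000 without strand marking stated in the labels. Tools listed in the submitters' processing notes are BWA, Bowtie and RSEM, and the build is given there as GRCh37 or hg19; versions and the role of each tool are not given in the sources used here. Per the file headers, the authors deposited expected counts per gene, which are estimated and not normalised, FPKM, which are scaled by gene length and library total, and a gene length. Files were keyed by Entrez Gene ID and listed only genes above 0; a gene missing from a library was taken as 0. Of 21508 identifiers 21386 matched a symbol. Expected counts were rounded. Genes were filtered with edgeR's filterByExpr (minimum count 10, minimum total 15), scaled by TMM (factors 0.990 to 1.014) and fitted in edgeR 4.0.16 under R 4.3.3 (glmQLFit, robust) over all 12 libraries with 4 group means, which share 1 estimate of the spread (8 residual degrees of freedom, common biological coefficient of variation 8.74%). Pairs of libraries within a group differed by more than counting noise (chi-square 2.35 to 11.7 per degree of freedom), and all were kept as separate samples.

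The libraries and the 55 gene lists (1433 entries, 1405 listed in a library) were chosen with earlier results of these data known. Of 1236 distinct list genes tested 201 were called, and 7 lists held no called gene. Genes were named by rule: the 12 largest called changes in each direction whose groups did not overlap and whose mean log2 CPM reached 1, the called members of each list (up to 4, by p), 25 genes of interest, and the 5 lowest p in each direction of the difference of effects; the families by symbol and SNHG, KDM and tubulin genes, TXNIP, NQO1, NEU1 and other list members were named after values were seen. Another 9 called loci have only a locus or reading-frame symbol and are counted but left unnamed, and a few genes that the rule names are not reported here. Alternatives were DESeq2 1.42.0, other scaling and filters, limma 3.58.1 on log2(FPKM + 0.1) and log2(FPKM + 1), passage, the replicate block, leaving out libraries, and, added after seeing the data, leaving out a replicate number and removing each library's trend with gene length (lowess, span 0.3). RefSeq promoter windows (GRCh38.p14) held 35116 start sites of 27305 genes.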

Additional observations from a re-analysis of the deposited data

How the results depend on the processing

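The count of genes called with 1-AKP and negative siRNA was 1168, and it moved most with the replicate block and with replicate numbers left out; the cause was not tested. It was 777 in the 6 libraries alone, 51 within passage 74 and 492 to 991 without 1 library, or 29 to 2559 without 1 replicate number. With TUNAR siRNAs it was 1201, and 67 within passage 74, 511 to 1284 without 1 library and 24 to 2769 without 1 replicate number. The labels do not say that a replicate number marks a shared culture or day beyond the passage. Libraries with the same number deviated from their group means with correlations of 0.427, 0.0871 and 0.223 with negative siRNA and 0.407, 0.0634 and 0.159 with TUNAR siRNAs, not all above 0.1, and 5 of 6 and 2 of 6 libraries correlated best with their own number. The fit with a replicate block called 4285 genes with negative siRNA, 4724 in the 6 libraries alone and 2643 in DESeq2, and 4335 and, in DESeq2, 2733 with TUNAR siRNAs. All 1168 genes were also called in the first of these block fits, and so were 11 of 28 named genes not called without the block, among them G6PC2 (adjusted p = 7.11e-27), CTNNB1 (1.38e-05), MAFA (7.23e-05), CDKN1A (0.000757), TUNAR (0.00198), PDX1 (0.00280), RNF43 (0.0218), TCF7L2 (0.0248) and GSK3A (0.0399). DESeq2 without a block (1346), library size only (1116), DESeq2 size factors in edgeR (1152), no filter (993), a minimum count of 50 (1230), limma on FPKM (1027 and 1017), passage as a covariate (1535) and the length trend removed (896) stayed within 1.5 times of 1168, and with TUNAR siRNAs within 1.5 times of 1201. The difference of the effects had 0 calls in every alternative. Of 180 named genes 152 were called, 78 of them without any 1 library. Of the 4108 values of the 180 genes under the 23 alternatives 0 reversed, 838 lost the call and 40 gained it. A reversal was counted only where the gene was called in the main fit or in the alternative. Some genes not called did change sign, such as AXIN2 (log2 fold change -0.10, and 0.07 without replicate 3). In called genes the groups do not overlap, which nearly fixes their direction when libraries are left out. With 3 libraries a group and the depth of these libraries, small changes of genes near the filter may not have been detectable.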

Other observations

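Among lists not described above, developmental signalling genes fell where they were called: of 32 TGF-beta, BMP and Notch genes tested, 3 fell and none rose, with a median of -0.14. None was called without replicate 2 or without replicate 3. INHBB, an activin subunit, stood at 3.75, 3.05 and 2.82 CPM with DMSO and 1.52, 1.83 and 1.46 CPM with 1-AKP (log2 fold change of -1.0, SE 0.201, adjusted p = 0.0111; adjusted p = 0.0551 without 1-AKP replicate 3). DLL4, a Notch ligand, stood at 41.8, 42.1 and 50.8 CPM with DMSO and 33.6, 33.4 and 35.3 CPM with 1-AKP (log2 fold change of -0.40, SE 0.0817, adjusted p = 0.0127; adjusted p = 0.0563 without 1-AKP replicate 2), and ID4, a helix-loop-helix inhibitor, fell from 94.8 ± 5.05 to 68.7 ± 10.0 CPM (log2 fold change of -0.47, SE 0.0967, adjusted p = 0.0133; adjusted p = 0.0632 without 1-AKP replicate 2). Neural genes split, with 3 risen and 3 fallen of 30: DCX, doublecortin, fell from 167 ± 14.1 to 126 ± 5.32 CPM (log2 fold change of -0.41, SE 0.0682, adjusted p = 0.00433) and ELAVL4, a neuronal RNA-binding protein, from 28.6 ± 4.07 to 18.6 ± 1.95 CPM (log2 fold change of -0.62, SE 0.116, adjusted p = 0.00788), while GRIA2, a glutamate receptor subunit, rose from 8.28 ± 0.416 to 11.9 ± 1.37 CPM (log2 fold change of 0.52, SE 0.108, adjusted p = 0.0131; adjusted p = 0.0660 without 1-AKP replicate 2).

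Amino acid transporters also split, with 3 risen and 3 fallen of 25. SLC6A6, the taurine transporter, stood at 224, 232 and 243 CPM with DMSO and 186, 182 and 190.0 CPM with 1-AKP (log2 fold change of -0.33, SE 0.0427, adjusted p = 0.000913), and SLC38A2, a glutamine transporter, fell from 199.7 ± 10.8 to 156 ± 2.61 CPM (log2 fold change of -0.35, SE 0.0575, adjusted p = 0.00370). Of 26 cholesterol synthesis genes 2 rose, among them DHCR7, which makes cholesterol in the last step (log2 fold change of 0.25, SE 0.0482, adjusted p = 0.00885), and of 29 fatty acid genes 2 rose. Of 32 adhesion genes 2 rose and 1 fell. JUP, plakoglobin, a relative of beta-catenin, fell from 235, 233 and 241 CPM with DMSO to 199, 190.1 and 188 CPM with 1-AKP (log2 fold change of -0.30, SE 0.0436, adjusted p = 0.00201), and CDH2, N-cadherin, rose from 79.4 ± 6.71 to 99.0 ± 3.59 CPM (log2 fold change of 0.32, SE 0.0639, adjusted p = 0.0104; adjusted p = 0.0533 without 1-AKP replicate 3). SESN1 was the only one called of 17 p53 targets (log2 fold change of -0.32, SE 0.0588, adjusted p = 0.00737) and APAF1 the only one of 25 apoptosis genes (log2 fold change of -0.44, SE 0.0951, adjusted p = 0.0170; adjusted p = 0.0800 without 1-AKP replicate 3). Among 27 immediate early genes FOSL2 rose and IER2 and NR4A2 fell, and each lost its call without 1 or another library (adjusted p up to 0.0830, 0.106 and 0.168).

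Other lists held few calls. Of 28 Polycomb genes 3 fell and 1 rose, of 13 histone genes 2 fell, of 25 semaphorin, neuropilin and VEGF genes 4 fell and 1 rose, and of 30 glycosaminoglycan enzymes 3 rose and 1 fell. Retinoid genes (14 tested), PGC-1 genes (12), G1 cyclins, CDKs and inhibitors (22) and clock genes (16) had 1 risen and 1 fallen member each. Aryl hydrocarbon receptor targets (6), heat shock chaperones (18), calcium stores (14) and solute carriers of ions and zinc (20) had 1 risen member each, and RGS proteins (17) 1 fallen. Of 21 MHC class I and butyrophilin genes 2 fell, BTN3A1 and BTN3A2.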
